A study of Homo sapiens with 8 samples.

Results

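The 44 genes described here are interferon-stimulated genes, among them the sensors of viral RNA and the enzymes that double-stranded RNA switches on. They are the rows of the deposited gene table that carry 1 of 44 gene symbols, out of 57905 genes in all. All 44 averaged at least 1 TPM (a share of the library's RNA, corrected for transcript length) in at least 1 group, as 25982 genes of the table did. The cells are DU145 and PC3, prostate cancer lines long kept in culture, the first derived from a metastasis in the brain and the second from one in bone. Both lines were given a lentivirus, and the RNA was sequenced from 2 libraries per group. The DU145 TRIB1 group carried a virus for overexpression of TRIB1, a pseudokinase that presents proteins such as C/EBP factors to a ubiquitin ligase, and the DU145 control group carried a blank vector virus. The PC3 TRIB1 and PC3 control groups received the same pair of viruses. Every group had thus been exposed to a lentivirus, and cells without one were not analysed here. The time after infection, the promoter that drives TRIB1 and whether cells were selected or cloned are not stated in the labels. The labels also leave out whether replicates were separate cultures, and the p-values below cover the spread of these libraries alone, be it technical or biological.

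Interferons bind receptors at the cell surface, whose kinases activate STAT2 and related factors. STAT2 and IRF9 are parts of a complex that binds the interferon-stimulated response element, or ISRE, in the promoters of many antiviral genes, and a second element called GAS is also read in response to interferons. The RNA sensors RIG-I (DDX58) and MDA5 (IFIH1) act upstream, by starting interferon production when they meet viral RNA, and are interferon-stimulated themselves.

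TRIB1 itself stood at 69.4 and 62.3 TPM in DU145 TRIB1 cells, against 10.1 and 7.94 TPM in DU145 controls, and at 241 and 245 TPM in PC3 TRIB1 cells, against 45.1 and 50.8 TPM in PC3 controls, so the labels fit the targeted gene in all 8 libraries. Sequencing depth is unknown, because TPM keeps no totals. The second DU145 TRIB1 library stood apart on the second principal component, at -61.67 against 21.53 to 24.9 in the other DU145 libraries, and each result that ends without it is named as such below. The share of TPM from RN7SL1 and RN7SL2, the RNA of the signal recognition particle, was 1.93% and 3.17% in DU145 TRIB1 cells, against 1.27% and 1.56% in DU145 controls, and 2.03% and 2.24% in PC3 TRIB1 cells, against 1.61% and 1.97% in PC3 controls. The mitochondrial share was 6.5% and 6.72% in DU145 TRIB1 cells, against 7.08% and 7.07% in DU145 controls, and 5.24% and 5.34% in PC3 TRIB1 cells, against 7.21% and 5.4% in PC3 controls. Both shares moved with TRIB1 without overlap in each line. With the TPM of protein-coding genes rescaled alone, 31 members fell in DU145 and 7 fell and 9 rose in PC3. Of the 14577 genes in that setting, 892 fell and 471 rose in DU145, and 2825 fell and 2459 rose in PC3. Either way, 9.35% passed in DU145 and 36.2% in PC3. All 5 epithelial markers (KRT8, KRT18, KRT19, EPCAM, CDH1) averaged over 1 TPM in every group. Their sum was 1279 to 1396 TPM in DU145 TRIB1 cells, against 1389 to 1428 TPM in DU145 controls, and 2770.2 to 2815 TPM in PC3 TRIB1 cells, against 1453 to 1505 TPM in PC3 controls. The 5 prostate luminal markers summed to 7.38 to 8.44 TPM in DU145 TRIB1 cells, against 12.8 to 13.0 TPM in DU145 controls, and to 11.7 to 14.1 TPM in PC3 TRIB1 cells, against 7.92 to 8.88 TPM in PC3 controls, with KLK3 at 0 in both PC3 groups and in DU145 TRIB1 cells. The 7 leukocyte markers summed to 2.84 and 4.86 TPM in DU145 TRIB1 cells, against 3.5 and 4.67 TPM in DU145 controls, and to 3.65 and 4.43 TPM in PC3 TRIB1 cells, against 3.6 and 4.0 TPM in PC3 controls, so the TRIB1 and control libraries overlapped in both lines. The 4 fibroblast markers summed to at most 1.39 TPM in any DU145 library, with LUM at 0 in all 4, and to 5.24 and 5.75 TPM in PC3 TRIB1 cells, against 2.15 and 2.29 TPM in PC3 controls. The 2 endothelial markers found summed to at most 0.287 TPM in any library. Whether the shares and sums that moved with TRIB1 have a part in the results was not tested.

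With TRIB1, the members that passed went down alone in DU145 and went both ways in PC3. In DU145, 22 of 44 fell and 0 rose (limma on log2(TPM + 1), adjusted p below 0.05), where 2.01% of all 25982 genes tested fell and 0.712% rose. At an unadjusted p below 0.05 in the same limma fit, 37 members were lower and 0 higher, against 12.0% and 5.72% of all genes. Of the 22 that fell, 15 did so by more than 1 on the log2 scale, which is the fold cutoff stated in the series' design and was passed downward by 0.804% of all genes. The median log2 change of the members was -0.83, against -0.04 over all genes, and 43 of 44 values were negative. With protein-coding genes fitted alone, 31 members fell and 0 rose, where 892 of 14577 genes fell and 471 rose. Both DU145 TRIB1 libraries lay below both DU145 controls for 40 of the 44, against 29.7% of all genes, and above them for 0, against 17.6% of all genes. The exceptions were IFIT5, IFITM2, TRIM22 and XAF1. The median member stood at 6.6 TPM in DU145 TRIB1 cells and at 15.6 TPM in DU145 controls. In bulk RNA, fewer cells that express a gene and less RNA per cell cannot be told apart.

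In PC3, 7 members fell and 6 rose (15.9% and 13.6% of the 44), where 9.33% of all genes fell and 7.67% rose. The median log2 change was 0.12, against -0.01 over all genes. With protein-coding genes fitted alone, 7 members fell and 9 rose in PC3, where 2825 of 14577 genes fell and 2459 rose. Against that background the members do not stand out in PC3. Both PC3 TRIB1 libraries lay below both PC3 controls for 12 members (29.8% of all genes) and above them for 18 (24.5% of all genes), and the libraries overlapped for the other 14. The difference between the 2 changes (DU145 minus PC3) was itself tested in the limma fit of all 25982 genes. It was lower for 21 members and higher for 2, where 5.36% of all genes were lower and 4.01% higher, and the median difference was -0.96, against -0.03 over all genes.

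**Figure D1:**
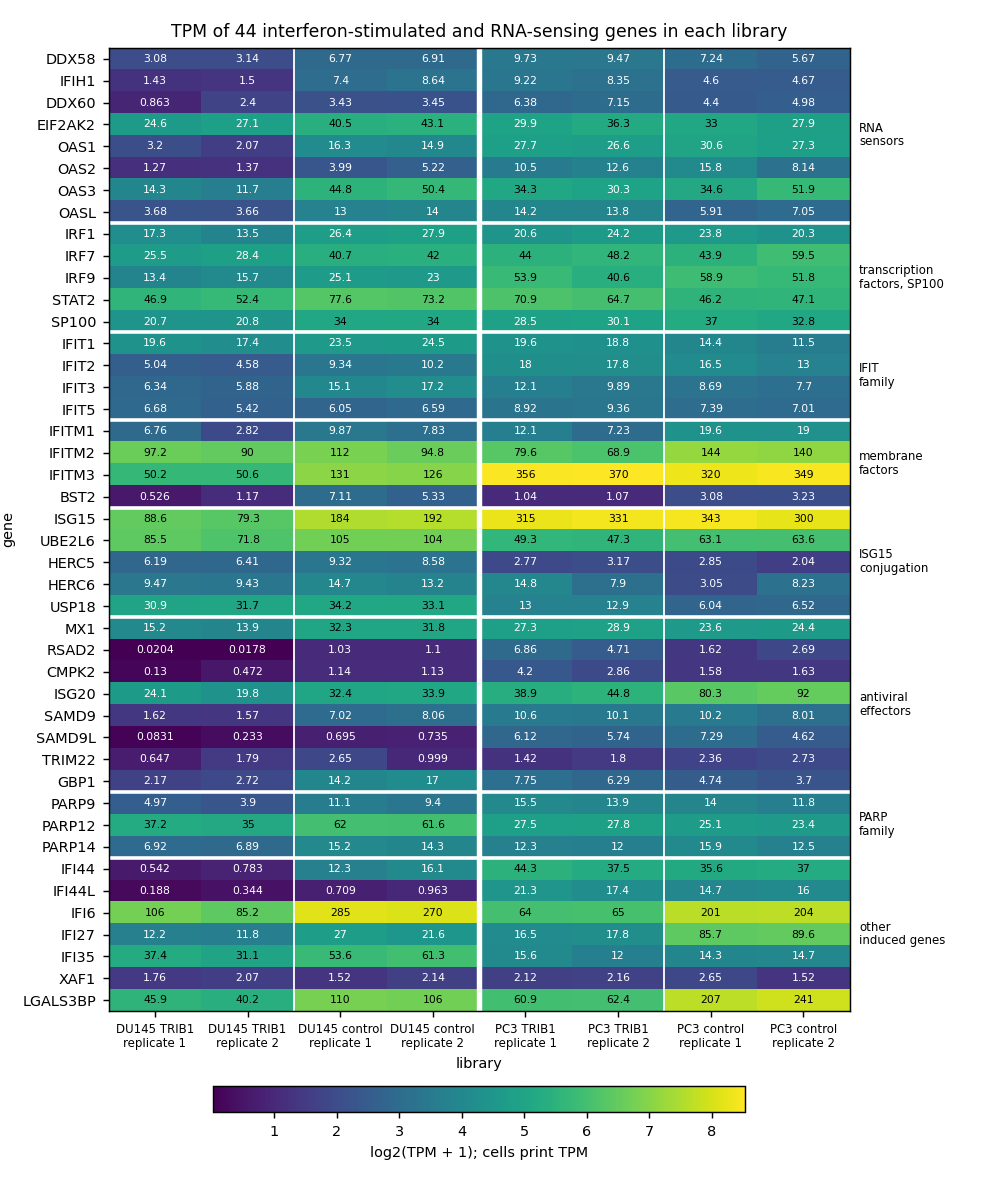
Heat map of the 44 genes (rows, grouped by role) in the 8 libraries (columns), coloured by log2(TPM + 1) with the TPM printed in each cell. In DU145 the TRIB1 columns are darker than the control columns for 40 of the 44 genes, while in PC3 the change of colour depends on the gene.

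These calls rest on a spread pooled over all 8 libraries, since each group has 2. With the 4 libraries of DU145 fitted alone, IFITM3 was the 1 member that still fell, and the other 21 of the 22 calls ended. With all 8 libraries less 1 in turn, 12 of the 22 DU145 calls held every time (IFIH1, OAS1, OASL, IFITM3, ISG15, MX1, SAMD9, GBP1, PARP12, IFI44, IFI6 and LGALS3BP), as did 7 of the 13 PC3 calls (OASL, IFITM2, USP18, ISG20, IFI6, IFI27 and LGALS3BP). The DU145 count was 14 without either DU145 control and 13 without either TRIB1 library of PC3, and the 6 rises in PC3 became 2 without the first and 3 without the second PC3 TRIB1 library. The libraries that end each other call are named beside it.

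By line, the members divided as follows. BST2, IFI6, IFI27 and LGALS3BP fell in both lines. IFIH1, OASL and STAT2 fell in DU145 and rose in PC3. Another 15 fell in DU145 and did not pass in PC3, and 16 passed in neither line. The rest passed in PC3 and not in DU145, with IFITM2, UBE2L6 and ISG20 lower and IFIT1, USP18 and RSAD2 higher in PC3 TRIB1 cells. Over all genes, 2.01% fell and 0.712% rose in DU145, and 9.33% fell and 7.67% rose in PC3. The share of all genes with each pattern over both lines was not computed, so no pattern is read as particular to the members.

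**Figure D2:**
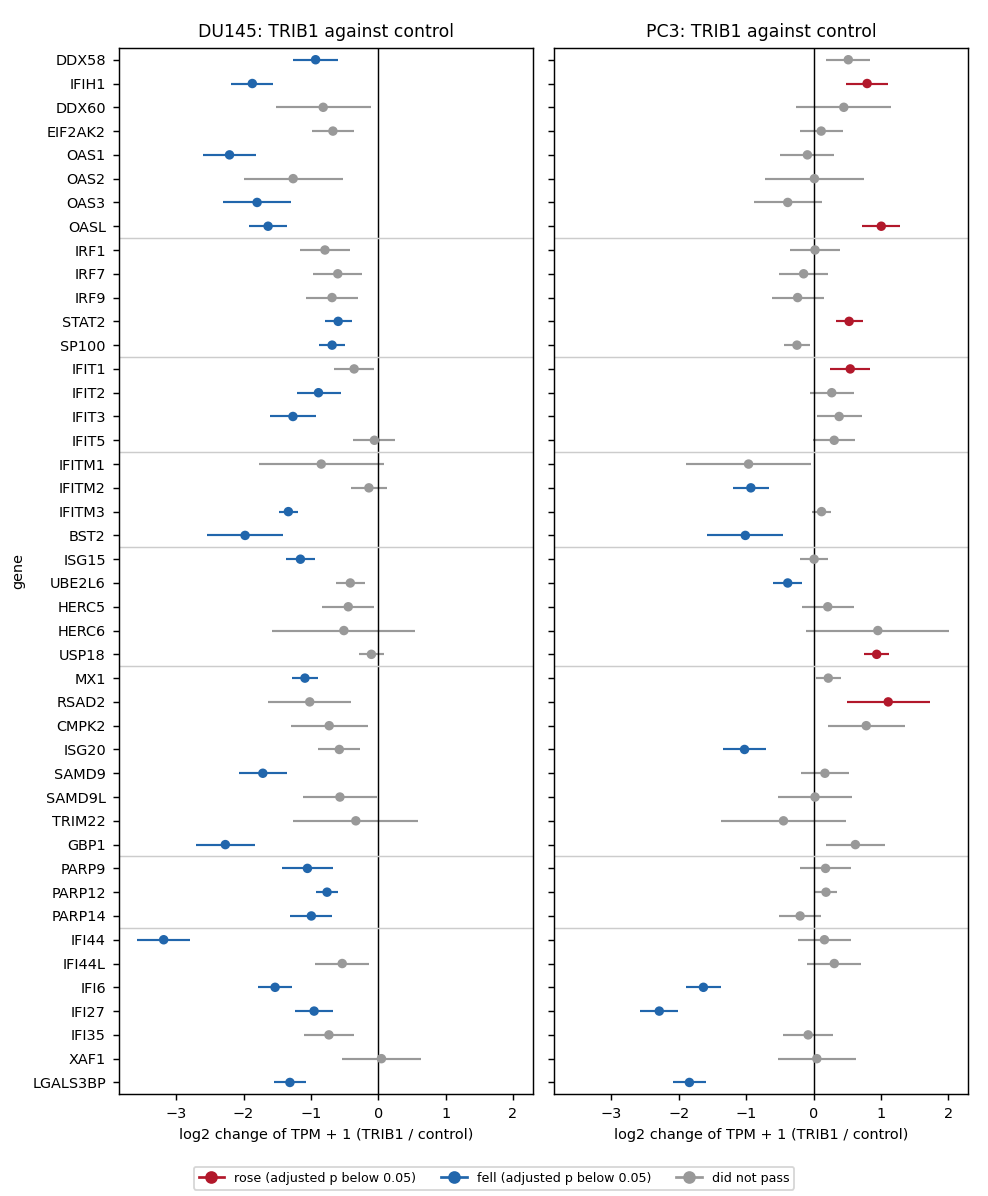
Log2 change of TPM + 1 (TRIB1 over control) for each of the 44 genes in DU145 (left) and PC3 (right), with 95% confidence intervals from the limma fit; blue marks genes that fell, red genes that rose and grey genes that did not pass. DU145 holds 22 blue and 0 red points, and PC3 holds 7 blue and 6 red.

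The promoters show what the members share at the level of sequence. Of the 44, 37 have a promoter in the RefSeq table used (GRCh38.p14), in which the 250 bases before each transcription start were searched on both strands. For each member the first entry listed was used, while the shares over all promoters count every entry. The ISRE core GAAANNGAAA, or its reverse TTTCNNTTTC, stood in 21 of these 37 (56.8%), against 3.02% of all 35116 promoters in the table. The members were chosen as interferon-stimulated genes, so this excess says nothing of TRIB1. The GAS letters TTCNNNGAA, which read alike on both strands, stood in 9 of 37 (24.3%), against 6.57% of all promoters. A match describes letters and is not evidence of a bound factor. The core was in 14 of the 20 matched members that fell in DU145 (70.0%) and in 7 of the 17 that did not pass there (41.2%). In PC3 it was in 5 of 6 members that fell (83.3%), 2 of 4 that rose (50%) and 14 of 27 that did not pass (51.9%), so members of each kind carried it.

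The windows below set genes that fell and genes that did not pass side by side around the same core. Of the genes that rose in PC3, IFIH1 alone is among them. IFIT1, which also rose in PC3 and holds 2 matches, is not printed. They run 5′ to 3′ on the gene's own strand, with every match to the core in capitals. Each runs from 20 bases before the first match to 20 bases after the last, or to the start, apart from IFI6 and IFIH1, which are given with all 250 upstream bases. The first 4 belong to genes that fell in both lines. IFI6 holds 3 matches, IFI27 holds 2, BST2 holds 2 that overlap and LGALS3BP holds 1.
IFI6, chr1:27672193-27672442, minus strand: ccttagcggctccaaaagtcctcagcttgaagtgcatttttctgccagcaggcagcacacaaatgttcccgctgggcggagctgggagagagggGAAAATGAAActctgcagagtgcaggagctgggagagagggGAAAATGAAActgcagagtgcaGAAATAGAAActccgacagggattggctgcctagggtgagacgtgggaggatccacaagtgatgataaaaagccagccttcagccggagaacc
IFI27, chr14:94110608-94110670, plus strand: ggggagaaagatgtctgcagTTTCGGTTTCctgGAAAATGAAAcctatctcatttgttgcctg
BST2, chr19:17405725-17405780, minus strand: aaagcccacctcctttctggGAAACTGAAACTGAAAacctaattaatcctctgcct
LGALS3BP, chr17:78979952-78980001, minus strand: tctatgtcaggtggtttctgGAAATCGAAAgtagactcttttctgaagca
The next 5 belong to genes that fell in DU145 and did not pass in PC3, with 1 match each in IFI44, GBP1 and SAMD9, 2 that overlap in ISG15 and 2 apart in IFITM3.
IFI44, chr1:78649751-78649788, plus strand: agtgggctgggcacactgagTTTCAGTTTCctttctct
GBP1, chr1:89065306-89065355, minus strand: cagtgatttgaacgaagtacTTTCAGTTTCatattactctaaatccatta
SAMD9, chr7:93118086-93118135, minus strand: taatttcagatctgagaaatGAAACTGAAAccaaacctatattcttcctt
ISG15, chr1:1013364-1013419, plus strand: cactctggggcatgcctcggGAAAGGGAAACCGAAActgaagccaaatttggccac
IFITM3, chr11:320866-320932, minus strand: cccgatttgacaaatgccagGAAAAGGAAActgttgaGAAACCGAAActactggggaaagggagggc
IFIH1 fell in DU145 and rose in PC3. Its 250 upstream bases hold 3 matches, of which the first pair overlap.
IFIH1, chr2:162318685-162318934, minus strand: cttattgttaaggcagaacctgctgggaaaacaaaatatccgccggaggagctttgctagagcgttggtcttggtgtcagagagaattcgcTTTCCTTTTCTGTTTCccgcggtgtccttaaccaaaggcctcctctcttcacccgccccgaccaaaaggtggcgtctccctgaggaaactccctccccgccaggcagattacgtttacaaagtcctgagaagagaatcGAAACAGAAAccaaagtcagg
The last 3 are ISG20, which fell in PC3 and did not pass in DU145, and IFIT5 and HERC5, which passed in neither line and hold 2 and 3 matches, those of HERC5 with the first pair overlapping.
ISG20, chr15:88638927-88638976, plus strand: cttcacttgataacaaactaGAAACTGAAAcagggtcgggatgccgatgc
IFIT5, chr10:89414503-89414567, plus strand: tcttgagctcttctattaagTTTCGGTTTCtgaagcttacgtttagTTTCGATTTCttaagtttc
HERC5, chr4:88456974-88457074, plus strand: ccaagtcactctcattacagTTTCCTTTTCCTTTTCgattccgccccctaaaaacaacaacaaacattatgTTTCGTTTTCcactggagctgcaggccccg
ISG15 and LGALS3BP both carry the core; ISG15 fell in DU145 and did not pass in PC3, and LGALS3BP fell in both lines. Whether the core has a part in these changes was not tested.

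**Figure D3:**
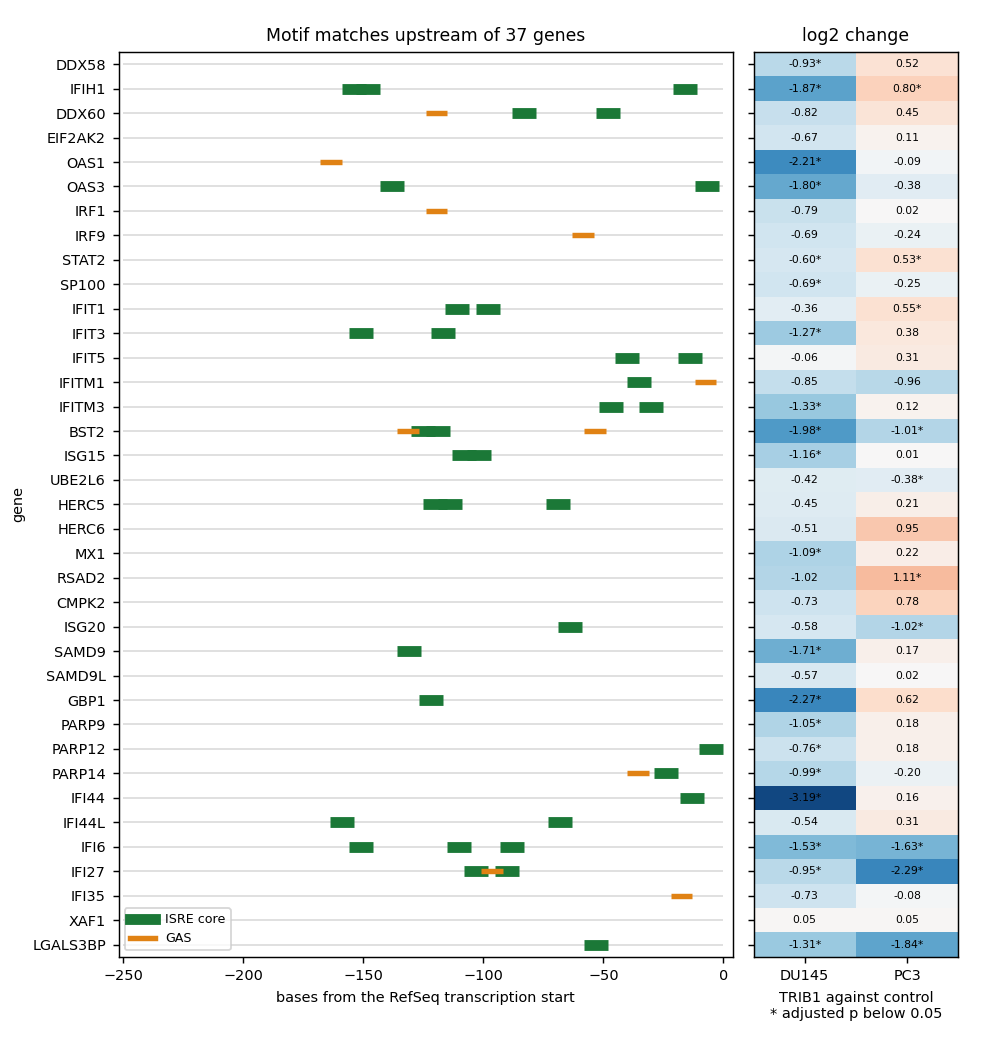
Left, ISRE core (green) and GAS (orange) matches in the 250 bases before the RefSeq start of the 37 matched genes, by distance from the start in bases; right, the log2 change with TRIB1 in DU145 and PC3, with an asterisk where the adjusted p is below 0.05. Green marks stand beside genes that fell, rose and did not pass.

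Among the 8 RNA sensors and enzymes of double-stranded RNA, 5 fell in DU145 and 0 rose, with a median log2 change of -1.45. In PC3 2 rose and 0 fell. Over all genes, 2.01% fell and 0.712% rose in DU145, and 9.33% fell and 7.67% rose in PC3. At an unadjusted p below 0.05 in limma, the DU145 count was 8 lower and 0 higher (12.0% and 5.72% of all genes). The PC3 count was then 0 lower and 3 higher (16.8% and 13.8% of all genes). IFIH1 (ENSG00000115267, chromosome 2), which encodes the MDA5 sensor of long double-stranded RNA, had 1.43 and 1.5 TPM in DU145 TRIB1 cells, against 7.40 and 8.64 TPM in DU145 controls. In PC3 the same gene had 9.22 and 8.35 TPM in TRIB1 cells, against 4.60 and 4.67 TPM in controls. The lines thus moved in opposite directions, with no overlap of libraries in either, and with TRIB1 the gene was lower in DU145 and higher in PC3 than in any control of its own line. The log2 change was -1.87 in DU145 (SE 0.13, adjusted p = 0.00441) and 0.80 in PC3 (adjusted p = 0.0126), and the difference between them was -2.67 (SE 0.18, adjusted p = 0.00278). The PC3 call ended without either TRIB1 library of PC3 (adjusted p then 0.0515 to 0.0693), while the DU145 call and the difference held without each library. OASL, a member of the oligoadenylate synthetase family without synthetase activity that assists RIG-I, had 3.68 and 3.66 TPM in DU145 TRIB1 cells, against 13.0 and 14 TPM in DU145 controls. It had 14.2 and 13.8 TPM in PC3 TRIB1 cells, against 5.91 and 7.05 TPM in PC3 controls. This mirror image kept its call in both lines without each library in turn: the log2 change was -1.64 in DU145 (SE 0.11, adjusted p = 0.00453), 1.00 in PC3 (adjusted p = 0.0048) and the difference -2.64 (adjusted p = 0.00231).

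The synthetases OAS1, OAS2 and OAS3 make the short oligoadenylates that activate RNase L. OAS1 had 3.20 and 2.07 TPM in DU145 TRIB1 cells, against 16.3 and 14.9 TPM in DU145 controls (log2 change -2.21, SE 0.16, adjusted p = 0.00528). In PC3 it had 27.7 and 26.6 TPM in TRIB1 cells, against 30.6 and 27.3 TPM in controls (log2 change -0.09, adjusted p = 0.785), and the difference of -2.12 passed (adjusted p = 0.00803). OAS1 was therefore separated in DU145 and overlapped in PC3. OAS3 had 14.3 and 11.7 TPM in DU145 TRIB1 cells, against 44.8 and 50.4 TPM in DU145 controls (log2 change -1.80, adjusted p = 0.0169), and did not pass in PC3 (-0.38, adjusted p = 0.281). OAS2 had 1.27 and 1.37 TPM in DU145 TRIB1 cells, against 3.99 and 5.22 TPM in DU145 controls, and did not pass there either (log2 change -1.26, adjusted p = 0.10). DDX58, the RIG-I sensor of RNA ends, had 3.08 and 3.14 TPM in DU145 TRIB1 cells, against 6.77 and 6.91 TPM in DU145 controls (log2 change -0.93, adjusted p = 0.0305). PC3 TRIB1 cells held 9.73 and 9.47 TPM, against 7.24 and 5.67 TPM in PC3 controls, a change that missed the threshold (0.52, adjusted p = 0.0507), while the difference between the lines passed (-1.45, adjusted p = 0.0121). EIF2AK2, the kinase PKR, and the helicase DDX60 did not pass in DU145 (log2 change -0.67, adjusted p = 0.0613; -0.82, adjusted p = 0.22) or in PC3. The DU145 calls of DDX58 and OAS3, and the difference of OAS3 between the lines (-1.42, adjusted p = 0.0377), ended without any 1 of 6 libraries, namely both DU145 controls, both DU145 TRIB1 libraries and both PC3 TRIB1 libraries. The adjusted p was then 0.0881 to 0.126 for DDX58, 0.0507 to 0.0925 for OAS3 and 0.0784 to 0.134 for its difference. OAS1, OAS2 and OAS3 lie next to each other and overlap an antisense gene, and no strand setting is given in the sources used here, so reads of that gene cannot be told from theirs. The same limit holds for other members that overlap genes on the opposite strand, among them ISG15, IFI6, MX1, IFITM3 and PARP9.

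Of the transcription factors and the nuclear body protein SP100, 2 of 5 fell in DU145 and 1 rose in PC3. Over all genes, 2.01% fell in DU145 and 7.67% rose in PC3. STAT2, the partner of IRF9 in the factor that binds ISRE, had 46.9 and 52.4 TPM in DU145 TRIB1 cells, against 77.6 and 73.2 TPM in DU145 controls. In PC3 STAT2 had 70.9 and 64.7 TPM in TRIB1 cells, against 46.2 and 47.1 TPM in controls. With TRIB1 it was thus lower in one line and higher in the other, by a log2 change of -0.60 in DU145 (SE 0.08, adjusted p = 0.0275) and 0.53 in PC3 (adjusted p = 0.0112), with a difference of -1.12 (adjusted p = 0.0071). The PC3 call ended without the first PC3 TRIB1 library (adjusted p = 0.0599). The DU145 call ended without any 1 of 7 libraries, all but the second DU145 TRIB1 library (adjusted p then 0.0522 to 0.121), and the difference held without each. IRF9 had 13.4 and 15.7 TPM in DU145 TRIB1 cells, against 25.1 and 23.0 TPM in DU145 controls, a separation that did not pass (log2 change -0.69, adjusted p = 0.0926). IRF1 (-0.79, adjusted p = 0.0609) and IRF7 (-0.60, adjusted p = 0.111), activators of interferon and antiviral genes, likewise had log2 changes in DU145 that did not pass, and in PC3 the 3 IRF genes lay between -0.24 and 0.02. SP100, a part of the nuclear bodies that also hold PML, had 20.7 and 20.8 TPM in DU145 TRIB1 cells, against 34.0 TPM in each DU145 control (log2 change -0.69, adjusted p = 0.0179). In PC3 SP100 did not pass (-0.25, adjusted p = 0.0936), and neither did the difference between the lines (-0.44, adjusted p = 0.0684). Its DU145 call ended without either DU145 control, either TRIB1 library of DU145 or either of PC3 (adjusted p then 0.0511 to 0.0733).

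The IFIT proteins bind foreign RNA and one another, and their genes lie side by side on chromosome 10. IFIT3 had 6.34 and 5.88 TPM in DU145 TRIB1 cells, against 15.1 and 17.2 TPM in DU145 controls (log2 change -1.27, SE 0.14, adjusted p = 0.0148). IFIT2 had 5.04 and 4.58 TPM in DU145 TRIB1 cells, against 9.34 and 10.2 TPM in DU145 controls (-0.89, adjusted p = 0.034). Both fell in DU145, whereas IFIT1, with 19.6 and 17.4 TPM in DU145 TRIB1 cells, against 23.5 and 24.5 TPM in DU145 controls, did not pass (-0.36, adjusted p = 0.208), and IFIT5 lay near no change (-0.06, 95% interval -0.37 to 0.25, adjusted p = 0.886). In PC3 the 4 log2 changes were all positive, from 0.27 to 0.55. IFIT1 passed there, with 19.6 and 18.8 TPM in PC3 TRIB1 cells, against 14.4 and 11.5 TPM in PC3 controls (adjusted p = 0.0332). The difference between the lines passed for IFIT1 (-0.90, adjusted p = 0.0316), IFIT2 (-1.16, adjusted p = 0.0213) and IFIT3 (-1.65, adjusted p = 0.00938). The DU145 call of IFIT3 ended without the second DU145 control or the second DU145 TRIB1 library (adjusted p then 0.0612 to 0.0651), and its difference held without each library. The DU145 call of IFIT2 (adjusted p then 0.0842 to 0.141), its difference (0.0505 to 0.0755) and the difference of IFIT1 (0.0604 to 0.105) ended without either DU145 control, either TRIB1 library of DU145 or either of PC3. The rise of IFIT1 in PC3 ended without any library but the first PC3 control (0.0543 to 0.143). Reads may be shared among these paralogs, and IFIT1, IFIT2 and IFIT3 overlap LIPA on the opposite strand, so single values are uncertain.

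Of the 4 membrane factors that block viral entry or release, 2 fell in each line, against 2.01% of all genes in DU145 and 9.33% in PC3. These were BST2 in both, with IFITM3 in DU145 and IFITM2 in PC3. IFITM3, which hinders the fusion of viruses in endosomes, had 50.2 and 50.6 TPM in DU145 TRIB1 cells, against 131 and 126 TPM in DU145 controls. In PC3 it had 356 and 370.3 TPM in TRIB1 cells, against 320.1 and 349 TPM in controls. The gene was thus lower in DU145 and without a passing change at its high level in PC3, with log2 changes of -1.33 (SE 0.06, adjusted p = 0.0018) and 0.12 (adjusted p = 0.248), and the difference was -1.45 (adjusted p = 0.00208). IFITM2 went the other way round. It had 79.6 and 68.9 TPM in PC3 TRIB1 cells, against 144 and 140.0 TPM in PC3 controls (log2 change -0.93, SE 0.11, adjusted p = 0.00509), and 97.2 and 89.9 TPM in DU145 TRIB1 cells, against 112 and 94.8 TPM in DU145 controls, where the libraries overlapped (-0.14, adjusted p = 0.557). The difference was 0.79 (adjusted p = 0.0323), which ended without any library but the first DU145 control (adjusted p then 0.0597 to 0.0948). BST2, or tetherin, which holds budding virus to the cell, had 0.526 and 1.17 TPM in DU145 TRIB1 cells, against 7.11 and 5.33 TPM in DU145 controls. In PC3 BST2 had 1.04 and 1.07 TPM in TRIB1 cells, against 3.08 and 3.23 TPM in controls. It fell in both lines, by a log2 change of -1.98 in DU145 (adjusted p = 0.0177) and -1.01 in PC3 (adjusted p = 0.0342), and the difference of -0.96 did not pass (adjusted p = 0.128). The DU145 call of BST2 ended without the first DU145 control or either TRIB1 library of PC3 (adjusted p then 0.0639 to 0.0758), and the PC3 call without any library but the 2 of DU145 TRIB1 (0.058 to 0.134). IFITM1 varied between replicates, with 6.76 and 2.82 TPM in DU145 TRIB1 cells and 12.1 and 7.23 TPM in PC3 TRIB1 cells, and passed in neither line. IFITM1, IFITM2 and IFITM3 are related genes that lie close together, IFITM1 and IFITM2 overlap on the same strand, and their division of reads is uncertain.

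ISG15 is a ubiquitin-like protein, which UBE2L6 and, in human cells, HERC5 attach to other proteins and USP18 removes. ISG15 had 88.6 and 79.3 TPM in DU145 TRIB1 cells, against 184 and 192 TPM in DU145 controls, and 315 and 331 TPM in PC3 TRIB1 cells, against 343 and 300.4 TPM in PC3 controls. The DU145 libraries were well apart and the PC3 libraries overlapped: the log2 change was -1.16 in DU145 (SE 0.09, adjusted p = 0.00534) and 0.01 in PC3 (adjusted p = 1), with a difference of -1.17 (adjusted p = 0.00748). USP18, which also restrains signalling at the interferon receptor, had 13.0 and 12.9 TPM in PC3 TRIB1 cells, against 6.04 and 6.52 TPM in PC3 controls. In DU145 it had 30.9 and 31.7 TPM in TRIB1 cells, against 34.2 and 33.1 TPM in controls. It rose in PC3 (log2 change 0.94, SE 0.08, adjusted p = 0.00205) and did not pass in DU145 (-0.10, 95% interval -0.29 to 0.08, adjusted p = 0.537), and the difference passed (-1.04, adjusted p = 0.00714). UBE2L6 had 49.3 and 47.3 TPM in PC3 TRIB1 cells, against 63.1 and 63.6 TPM in PC3 controls. In DU145 UBE2L6 had 85.5 and 71.8 TPM in TRIB1 cells, against 105 and 104 TPM in controls. The log2 changes of UBE2L6 were -0.42 in DU145 (adjusted p = 0.0772) and -0.38 in PC3 (adjusted p = 0.0357), so it passed in PC3 alone with nearly the same value, and the difference was -0.03 (95% interval -0.34 to 0.27, adjusted p = 0.896). Its PC3 call ended without any library but the 2 of DU145 TRIB1 (adjusted p then 0.0815 to 0.154). HERC5 and HERC6 did not pass in either line, and HERC6 was uneven between replicates, with 14.8 and 7.90 TPM in PC3 TRIB1 cells, against 3.05 and 8.23 TPM in PC3 controls.

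Of the 8 effectors of antiviral defence, MX1, SAMD9 and GBP1 fell in DU145, where 2.01% of all genes fell. ISG20 fell and RSAD2 rose in PC3, which is 12.5% of the 8 each way, against 9.33% and 7.67% of all genes. GBP1, a large GTPase that coats pathogen membranes, had 2.17 and 2.72 TPM in DU145 TRIB1 cells, against 14.2 and 17.0 TPM in DU145 controls. In PC3 it had 7.75 and 6.29 TPM in TRIB1 cells, against 4.74 and 3.70 TPM in controls. The libraries were apart in both lines and in opposite directions, yet the PC3 change of 0.62 did not pass (adjusted p = 0.0689), while that of -2.27 in DU145 (SE 0.18, adjusted p = 0.00621) and the difference of -2.89 did (adjusted p = 0.00499). SAMD9, known to restrict poxviruses, had 1.62 and 1.57 TPM in DU145 TRIB1 cells, against 7.02 and 8.06 TPM in DU145 controls (log2 change -1.71, adjusted p = 0.00697), and in PC3 its libraries overlapped (0.17, adjusted p = 0.507). MX1, a dynamin-like GTPase that traps viral nucleoproteins, had 15.2 and 13.9 TPM in DU145 TRIB1 cells, against 32.3 and 31.8 TPM in DU145 controls (-1.09, SE 0.08, adjusted p = 0.00484). In PC3 MX1 had 27.3 and 28.9 TPM in TRIB1 cells, against 23.6 and 24.4 TPM in controls (0.22, adjusted p = 0.115). The differences of SAMD9 (-1.88, adjusted p = 0.00812) and MX1 (-1.31, adjusted p = 0.00443) passed.

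ISG20, an RNA exonuclease, had 38.9 and 44.8 TPM in PC3 TRIB1 cells, against 80.3 and 92.0 TPM in PC3 controls, and 24.1 and 19.8 TPM in DU145 TRIB1 cells, against 32.4 and 33.9 TPM in DU145 controls. It was lower in all TRIB1 libraries than in the controls of the same line and passed in PC3 (log2 change -1.02, SE 0.13, adjusted p = 0.00613) but not in DU145 (-0.58, adjusted p = 0.0851), and the difference of 0.45 did not pass (adjusted p = 0.191). RSAD2, or viperin, makes a chain-terminating nucleotide, and CMPK2, a nucleotide kinase, is its neighbour on chromosome 2. RSAD2 had 6.86 and 4.71 TPM in PC3 TRIB1 cells, against 1.62 and 2.69 TPM in PC3 controls, and 0.0204 and 0.0178 TPM in DU145 TRIB1 cells, against 1.03 and 1.1 TPM in DU145 controls. CMPK2 had 4.20 and 2.86 TPM in PC3 TRIB1 cells, against 1.58 and 1.63 TPM in PC3 controls, and 0.130 and 0.472 TPM in DU145 TRIB1 cells, against 1.14 and 1.13 TPM in DU145 controls. Both genes were higher with TRIB1 in PC3 and lower in DU145 in every library, at levels where log2(TPM + 1) compresses the change. RSAD2 rose in PC3 (log2 change 1.11, adjusted p = 0.0341) and did not pass in DU145 (-1.02, adjusted p = 0.109), and CMPK2 passed in neither. The difference between the lines passed for RSAD2 (-2.13, adjusted p = 0.0227) and CMPK2 (-1.51, adjusted p = 0.0446). The rise of RSAD2 in PC3 ended without any library but the second PC3 control (adjusted p then 0.0577 to 0.124). Its difference ended without either DU145 control, either DU145 TRIB1 library or the first PC3 TRIB1 library (0.058 to 0.0746), and that of CMPK2 without any 1 of the 8 (0.0506 to 0.11). The 2 genes overlap on opposite strands. SAMD9L, with 0.0831 and 0.233 TPM in DU145 TRIB1 cells, against 0.695 and 0.735 TPM in DU145 controls, and TRIM22, a ubiquitin ligase gene at 0.647 to 2.73 TPM over all libraries, passed in neither line.

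All 3 ADP-ribosyltransferase family genes fell in DU145, where 2.01% of all genes fell. In PC3 0 of 3 passed (1 was higher at an unadjusted p below 0.05 in limma, as were 13.8% of all genes). PARP12 had 37.2 and 35.0 TPM in DU145 TRIB1 cells, against 62.0 and 61.6 TPM in DU145 controls (log2 change -0.76, SE 0.07, adjusted p = 0.00828). PARP14 had 6.92 and 6.89 TPM in DU145 TRIB1 cells, against 15.2 and 14.3 TPM in DU145 controls (-0.99, adjusted p = 0.0233). PARP9, which works with the ubiquitin ligase DTX3L, had 4.97 and 3.90 TPM in DU145 TRIB1 cells, against 11.1 and 9.40 TPM in DU145 controls (-1.05, adjusted p = 0.0328). The PC3 changes of the trio lay between -0.20 and 0.18, and the difference passed for PARP12 (-0.95, adjusted p = 0.00696), PARP9 (-1.23, adjusted p = 0.0269) and PARP14 (-0.80, adjusted p = 0.049). PARP12 kept both calls without each library. The DU145 call of PARP9 ended without any 1 of the 8 libraries (adjusted p then 0.0534 to 0.15) and its difference without either DU145 control, the second DU145 TRIB1 library, the second PC3 control or either TRIB1 library of PC3 (0.0665 to 0.096). For PARP14 the DU145 call (0.0731 to 0.11) and the difference (0.108 to 0.141) ended without either DU145 control, either TRIB1 library of DU145 or either of PC3.

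The 7 other induced genes hold the members with the largest falls among the 44 on the log2(TPM + 1) scale, IFI44 in DU145 and IFI27 in PC3. IFI44 (ENSG00000137965, chromosome 1), a cytoplasmic protein of antiviral responses, had 0.542 and 0.783 TPM in DU145 TRIB1 cells, against 12.3 and 16.1 TPM in DU145 controls. In PC3 it had 44.3 and 37.5 TPM in TRIB1 cells, against 35.6 and 37.0 TPM in controls. The fall in DU145 brought it under 1 TPM, whereas in PC3 it stood at 35.6 TPM or more in every library. The log2 change was -3.19 in DU145 (SE 0.16, adjusted p = 0.00259) and 0.16 in PC3 (adjusted p = 0.564), with a difference of -3.35 (SE 0.22, adjusted p = 0.00278). Its neighbour and paralog IFI44L had 0.188 and 0.344 TPM in DU145 TRIB1 cells, against 0.709 and 0.963 TPM in DU145 controls, and did not pass (-0.54, adjusted p = 0.171).

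IFI27, LGALS3BP and IFI6 had the largest falls of the 44 genes in PC3 on the same scale and also fell in DU145. IFI27, a small mitochondrial membrane protein, had 16.5 and 17.8 TPM in PC3 TRIB1 cells, against 85.7 and 89.6 TPM in PC3 controls, and 12.2 and 11.8 TPM in DU145 TRIB1 cells, against 27.0 and 21.6 TPM in DU145 controls. The fall was smaller in DU145, at -0.95 (adjusted p = 0.0201), against -2.29 in PC3 (SE 0.12, adjusted p = 0.00095), with a difference of 1.34 (adjusted p = 0.0106). The DU145 call of IFI27 ended without either TRIB1 library of DU145 or either of PC3 (adjusted p then 0.0662 to 0.0805). IFI6 (ENSG00000126709, chromosome 1), a small membrane protein that shields cells from flaviviruses, had 64.0 and 65.0 TPM in PC3 TRIB1 cells, against 201 and 204 TPM in PC3 controls. In DU145 IFI6 had 106 and 85.2 TPM in TRIB1 cells, against 285 and 269.6 TPM in controls. Its log2 change was nearly the same in both lines, at -1.53 in DU145 (adjusted p = 0.00441) and -1.63 in PC3 (SE 0.11, adjusted p = 0.00111), and the difference was 0.10 (95% interval -0.26 to 0.47, adjusted p = 0.709). LGALS3BP, a secreted glycoprotein that binds galectins, had 60.9 and 62.4 TPM in PC3 TRIB1 cells, against 207 and 241 TPM in PC3 controls, and 45.9 and 40.2 TPM in DU145 TRIB1 cells, against 110.4 and 106 TPM in DU145 controls. It fell in both lines, by -1.31 in DU145 (adjusted p = 0.00528) and -1.84 in PC3 (SE 0.10, adjusted p = 0.00095), and the difference of 0.53 did not pass (adjusted p = 0.0705). IFI35 had 37.4 and 31.1 TPM in DU145 TRIB1 cells, against 53.6 and 61.3 TPM in DU145 controls (-0.73, adjusted p = 0.0756), and XAF1, a factor linked to cell death, did not pass in DU145 (0.05, 95% interval -0.54 to 0.63, adjusted p = 0.982) or in PC3.

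Summed over the 44 genes, the libraries held 886 and 818 TPM in DU145 TRIB1 cells, against 1672 and 1648 TPM in DU145 controls, and 1645 and 1631 TPM in PC3 TRIB1 cells, against 2046 and 2072 TPM in PC3 controls. The sum was thus lower with TRIB1 in both lines, although members of PC3 went both ways. In DU145 the mean sum differed by -807.9 TPM, of which IFI6 gave -181.4, ISG15 -104.1, IFITM3 -78.3 and LGALS3BP -65.1 TPM. In PC3 it differed by -420.7 TPM, made of -546.3 TPM over the members with a lower mean and 125.6 TPM over those with a higher one. LGALS3BP (-162.6 TPM), IFI6 (-138.0), IFI27 (-70.5) and IFITM2 (-67.8) led the falls there and IFITM3 (28.7 TPM) the rises. In DU145 TRIB1 cells 6 members averaged under 1 TPM and 0 reached 100 TPM, against 2 and 6 members in DU145 controls.

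The control cells of the 2 lines differed in their starting levels. Of the 44 genes, 15 were lower and 13 higher in PC3 controls than in DU145 controls, which is 34.1% and 29.5% of them, where 28.4% of all genes were lower and 18.6% higher. These controls also enter the TRIB1 comparisons, and the 2 kinds of change are therefore not independent. IFI44L had 14.7 and 16 TPM in PC3 controls, against 0.709 and 0.963 TPM in DU145 controls (log2 difference 3.16, adjusted p = 4.5e-05). SAMD9L had 7.29 and 4.62 TPM in PC3 controls, against 0.695 and 0.735 TPM in DU145 controls (1.99, adjusted p = 0.000823). Both genes thus stood under 1 TPM in DU145 controls. IFI27 (1.82), IFITM3 (1.37), ISG20 (1.35), IFI44 (1.31), IRF9 (1.17) and LGALS3BP (1.04) were also higher in PC3 controls by more than 1 on the log2 scale, each with an adjusted p of at most 0.00169. USP18 had 6.04 and 6.52 TPM in PC3 controls, against 34.2 and 33.1 TPM in DU145 controls (-2.25, adjusted p = 1.2e-05), and IFI35 (-1.91), GBP1 (-1.67), HERC5 (-1.54) and PARP12 (-1.31) were lower too. OAS2, higher in PC3 controls (1.16, adjusted p = 0.0222), lost its call without any library but the second PC3 control (adjusted p then 0.0515 to 0.127). The other calls that a single library ended were OAS1 (second DU145 control, adjusted p = 0.0534), IFIT2 (either DU145 control, 0.056 to 0.0903), IFI6 (any control library, 0.0596 to 0.0885) and IFITM2 (second DU145 control or either PC3 control, 0.0603 to 0.0765). BST2 lost its call without the first DU145 control or any PC3 library (0.0634 to 0.145), and EIF2AK2 without any DU145 library or the second PC3 control (0.0535 to 0.145). Scaling by median of ratios turned this split to 11 lower and 16 higher, with the median of all genes at 0 in place of -0.18.

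**Figure D4:**
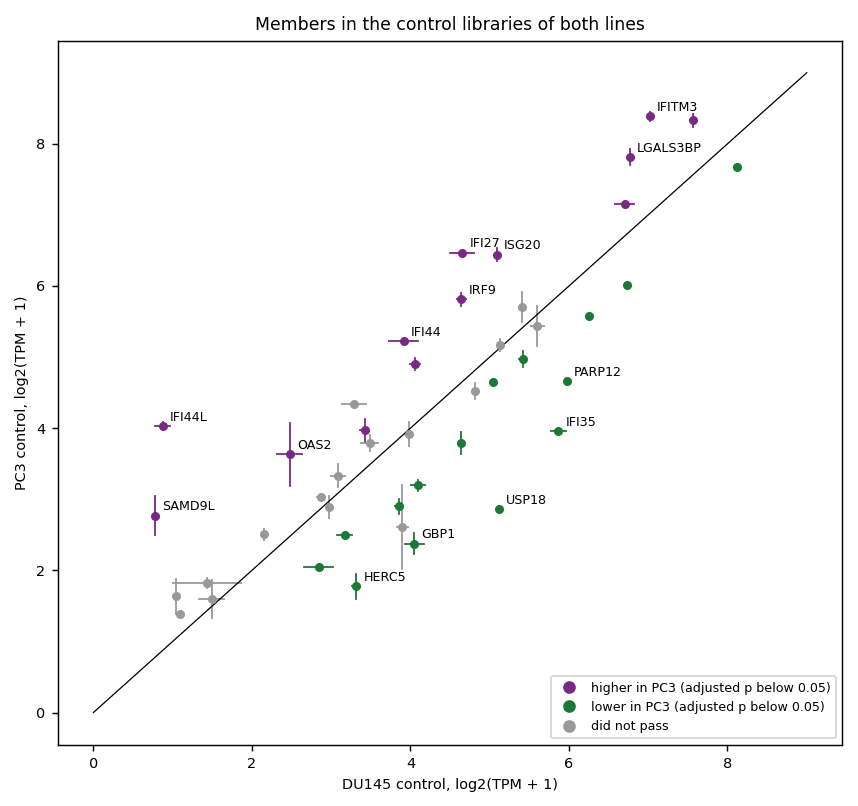
Mean log2(TPM + 1) of each of the 44 genes in PC3 controls (vertical axis) against DU145 controls (horizontal axis). Bars run from the value of 1 library to that of the other. Purple genes were higher and green genes lower in PC3 at an adjusted p below 0.05 in limma, and the line marks equal levels. Of the 44 points, 13 are purple and 15 green, with IFI44L and SAMD9L far above the line and USP18 and IFI35 far below it.

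A wider list of 69 genes of the interferon and RNA-sensing pathway, of which 58 reached 1 TPM in a group, places the members in their pathway. In DU145, 13 of the 58 fell (22.4%, against 2.01% of all genes) and 0 rose (0.712% of all genes), with a median log2 change of -0.46. In PC3 7 fell (12.1%, against 9.33% of all genes) and 5 rose (8.62%, against 7.67%), shares close to the background, with a median of -0.03. At an unadjusted p below 0.05 in limma, 37 of the 58 were lower and 0 higher in DU145, against 12.0% and 5.72% of all genes. With 1 library left out, the count of falls in DU145 was between 4 (without the first DU145 control or either TRIB1 library of PC3) and 12. In PC3 it was between 0 (without the second PC3 TRIB1 library) and 5, and the count of rises between 0 (without the first PC3 TRIB1 library) and 5. Of 9 interferon genes, 8 averaged under 1 TPM in every group, and IFNA2 was listed at 0 in all 8 libraries. IFNB1 had 0 and 0.101 TPM in DU145 TRIB1 cells, against 0.193 and 0.102 TPM in DU145 controls, and 0.296 and 0.474 TPM in PC3 TRIB1 cells, against 0.428 and 0 TPM in PC3 controls, so its libraries lay low and mixed. IFNE, the interferon of epithelia, averaged 1.00 TPM in DU145 TRIB1 cells and 1.08 TPM in DU145 controls, and did not pass in either line.

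Of 11 receptor and JAK-STAT genes, 4 fell in DU145 (36.4%, against 2.01% of all genes). In PC3 3 fell (27.3%, against 9.33% of all genes) and 2 rose (18.2%, against 7.67%). JAK1, a kinase of the receptors, had 46.7 and 43.0 TPM in DU145 TRIB1 cells, against 68.6 and 61.5 TPM in DU145 controls (-0.53, adjusted p = 0.0317), and 47.6 and 48.2 TPM in PC3 TRIB1 cells, against 34.0 and 34.1 TPM in PC3 controls (0.48, adjusted p = 0.0125). Like IFIH1, OASL and STAT2 it fell in DU145 and rose in PC3. Its DU145 call ended without any library but the second DU145 control (adjusted p then 0.0515 to 0.093) and its PC3 call without either TRIB1 library of PC3 (0.0614 to 0.0666). The receptor chain IFNGR1 rose in PC3 (0.64, adjusted p = 0.0161) and IFNGR2 fell (-0.45, adjusted p = 0.0187). Both calls ended without either TRIB1 library of PC3, and that of IFNGR1 also without the second PC3 control (0.0671 to 0.088 for IFNGR1, 0.0672 to 0.0932 for IFNGR2).

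Among the other genes of the list with the smallest p, GBP2 (-2.11, adjusted p = 0.00441), PLSCR1 (-1.13, adjusted p = 0.00442) and GBP3 (-1.13, adjusted p = 0.0109) fell in DU145 and kept the call without each library. TRIM25, the ligase that acts on RIG-I (-0.92, adjusted p = 0.0119), and HELZ2 (-1.46, adjusted p = 0.0148) fell there as well. TRIM25 lost its call without the first DU145 control or either TRIB1 library of PC3 (adjusted p then 0.054 to 0.0618), and HELZ2 without either DU145 control, either TRIB1 library of DU145 or either of PC3 (0.0612 to 0.0796). In PC3 the DNA sensor cGAS (listed as MB21D1) rose (0.56, adjusted p = 0.0192), and its partner STING (listed as TMEM173, -0.74, adjusted p = 0.0207) and RNF213 (-0.84, adjusted p = 0.0148) fell. The call of MB21D1 ended without the second PC3 control or the first PC3 TRIB1 library (0.064 to 0.0694), that of RNF213 without any PC3 library (0.0667 to 0.0947) and that of TMEM173 without any DU145 library or either TRIB1 library of PC3 (0.0509 to 0.11). The adaptor MAVS and the factor IRF3, which carry the signal of the RNA sensors, did not pass in DU145 (log2 change -0.004, adjusted p = 1; 0.06, adjusted p = 0.954) or in PC3 (-0.50, adjusted p = 0.0503; -0.05, adjusted p = 0.947).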

How the data were processed

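RNA sequencing of 8 libraries (4 groups of 2) was read from 1 deposited gene table of TPM values, which the authors scaled to the same total in each library, as the table's sums show. Per the submitters' processing notes, TopHat2 2.0.14, HTSeq, DESeq, edgeR and hg38 were used; which of them made the TPM values, the annotation and the strand setting are not stated there. Because TPM carries no totals, depth is unknown and no counting interval is given. The table's own gene intervals are not those of hg38 and are not printed.

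Groups and replicate numbers come from the sample titles. limma 3.58.1, under R 4.3.3 and with a mean-variance trend, was run on log2(TPM + 1), which understates the change of low genes, for the 25982 genes that averaged 1 TPM or more in some group. All 8 libraries entered 1 fit of 4 group means (4 residual degrees of freedom, prior 1.89). P-values were adjusted by Benjamini-Hochberg over all genes tested, and "rose" and "fell" need one below 0.05. Counts of "higher" and "lower" genes need the same, unless an unadjusted p is named. Where these 2 words compare TPM values of libraries, sums or means, they are no calls. Contrasts were TRIB1 against control per line, the difference of these changes, and control PC3 against control DU145. All 44 members are named; of the wider list, IRF3, MAVS and JAK1 are named with the 6 smallest p per line, and IFNB1, IFNE and IFNA2 were added after their values were seen, and 1 gene of the list is not reported here. The members and lists were chosen with earlier results of these data known. Promoters are RefSeq sequences of GRCh38.p14 matched by symbol (DDX58 as RIGI); OAS2, OASL, IRF7, IFIT2, IFITM2, USP18 and TRIM22 had no entry. Alternatives were another pseudocount, other filters, median-of-ratios scaling, each line alone, a replicate block, each library left out and, chosen after seeing the data, protein-coding genes of GENCODE 29 alone.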

Additional observations from a re-analysis of the deposited data

Results flagged for a closer look

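For 23 of the 44 genes the TRIB1 change in DU145 differed from that in PC3, tested as the difference of the changes in the limma fit of all 8 libraries. The difference was negative for 21 of them and positive for 2, where 5.36% of all genes were lower and 4.01% higher. On the log2 scale, DU145 minus PC3, it was -1.45 for DDX58, -2.67 for IFIH1, -2.12 for OAS1, -1.42 for OAS3 and -2.64 for OASL among the RNA sensors and enzymes. It was -1.12 for STAT2, -0.90 for IFIT1, -1.16 for IFIT2, -1.65 for IFIT3, -1.46 for IFITM3, -1.17 for ISG15 and -1.04 for USP18. Among the effectors it was -1.31 for MX1, -2.13 for RSAD2, -1.51 for CMPK2, -1.88 for SAMD9 and -2.89 for GBP1. PARP9 differed by -1.23, PARP12 by -0.95, PARP14 by -0.80 and IFI44 by -3.35. IFITM2 (0.79) and IFI27 (1.34) differed the other way, with the larger fall in PC3. The calls of DDX58, IFIH1, OAS1, OASL, STAT2, IFIT3, IFITM3, ISG15, USP18, MX1, SAMD9, GBP1, PARP12, IFI44 and IFI27, 15 in all, held without each library in turn, and the libraries that end the other 8 are named beside those genes above.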

How the results depend on the processing

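No member changed direction across a call under any alternative run, and 0 members rose in DU145 under each of them (limma). The count of members lower in DU145 was 22; it was 1 (IFITM3) with each line fitted alone, 14 with the replicate block, 31 with protein-coding genes alone, 22 to 24 under the pseudocount of 0.1, both filters and median-of-ratios scaling, and 13 to 22 with a library left out. Of the PC3 counts, members lower (7) ran from 5 to 7 and members higher (6) from 4 to 9 under the other settings, and from 2 to 6 with a library left out. For the difference between the lines, 21 lower and 2 higher became 17 and 2 with the replicate block and 1 higher over all genes above 0 TPM, with 14 to 22 and 1 to 2 when a library was left out. With protein-coding genes alone this difference was lower for 28 members and higher for 3, where 25.9% of all genes passed either way. Over all genes above 0 TPM it was lower for 18 members. Replicate numbers did not pair the libraries: the deviations of same-numbered libraries correlated at -0.042 in DU145 and -0.01 in PC3 over 25982 genes. The wider list (13 lower in DU145; 7 lower and 5 higher in PC3) gave 3, 1 and 2 with each line alone, 7 lower in DU145 and 3 higher in PC3 with the block, 11 lower in PC3 at 5 TPM, and 26 and 13 lower with protein-coding genes alone, with 4 to 12, 0 to 5 and 0 to 5 when a library was left out. Of all genes, 707 passed in DU145, 4415 in PC3 and 2434 in the difference. Each line alone gave 52 in DU145 and 2156 in PC3, and the block 223 in DU145 and 1461 in the difference. Protein-coding genes alone gave 1363 in DU145, 5284 in PC3 and 3769 in the difference. Leaving out a library gave 253 to 764, 2042 to 4145 and 1275 to 2916. Fewer genes and 2 residual degrees of freedom fewer enter the fit of a line alone. In it 1 of the 22 DU145 calls and 9 of the 13 PC3 calls were kept. Replicates correlated at 0.9289 in DU145 TRIB1 cells, 0.9581 in DU145 controls, 0.957 in PC3 TRIB1 cells and 0.9567 in PC3 controls. The cause of these shifts was not tested. Median-of-ratios scaling turned the split of all genes in DU145, 185 higher and 522 lower (26.2% higher), to 269 and 367 (42.3%), and that of the controls, 4840 and 7376 (39.6%), to 6073 and 5831 (51%), with members at 16 higher and 11 lower (59.3%) in place of 13 and 15 (46.4%). With protein-coding genes alone 9 members rose and 7 fell in PC3 (56.2% higher, against 46.5% over all genes that passed). Depth is unknown, and 2 libraries per group limit the precision of every value.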
